A study of Canis lupus familiaris with 42 samples.

Results

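The AP-1 and EGR immediate early genes are a set of transcription factor genes listed here as FOS, FOSB, FOSL1, FOSL2, JUN, JUNB, JUND, EGR1, EGR2 and NR4A1. They were taken by name, and each gene was read from the probe set that carries its symbol alone and has the highest mean over all arrays. This gave 9 of the 10 listed genes, out of 15115 genes with a probe set of their own. No probe set used here is annotated with JUND alone, so JUND was not analysed here.

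Gene expression was measured on Affymetrix canine arrays in spontaneous sarcomas of dogs, connective tissue tumours, sampled before and after a first hyperthermia session (heating of the tumour) that accompanied radiotherapy. The 42 arrays come from 21 tumours, each with 1 untreated array (labelled none for treatment) and 1 array labelled hyperthermia, and the tumours are numbered 1 to 21 here. The series text speaks of 22 tumours. The labels give no time between treatment and the second sample, do not say whether radiation had already been given, and name no breed, age or sarcoma type. No tumour was sampled again without treatment, so every change below is the second sample minus the first.

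Immediate early genes are switched on by existing signalling proteins without new protein synthesis, mostly through the MAP kinases ERK, JNK and p38, and many of their transcripts last only briefly. FOS family proteins (FOS, FOSB, FOSL1, FOSL2) pair with JUN family proteins (JUN, JUNB, JUND) to form AP-1, a dimer that binds a short DNA element in promoters and enhancers of genes for growth, matrix breakdown and inflammation. EGR1 and EGR2 are zinc finger factors and NR4A1 is an orphan nuclear receptor. All of them respond to growth factors, stress and injury in connective tissue cells, and FOSL1, which encodes FRA-1, is itself a known target of AP-1.

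FOSL1 rose after hyperthermia, by 0.73 ± 0.12 (SE, n = 21) on the log2 scale, or 1.66-fold, and it was higher in 18 of the 21 tumours. It was the 1 gene of the 9 that passed the threshold, a limma p under 0.05 after Benjamini-Hochberg adjustment over all 42924 probe sets. That is 1 of 9 called higher, beside 2.97% of all probe sets and 4.02% of named genes called in that direction. In either direction 1 of 9 was called, beside 5.96% of probe sets and 7.15% of named genes. None of the 9 was called lower by limma, beside 2.99% of probe sets and 3.13% of named genes, while FOSL2 was lower at an unadjusted p of 0.0192. The Wilcoxon signed-rank test, adjusted in the same way, also gave 1 higher and 0 lower. FOS, EGR1 and NR4A1 moved far in single tumours, up in some and down in others, and the 95% intervals of their means included 0.

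Values are log2 levels, so a difference of 1 is a doubling. Precision is limited by how many arrays there are. Array medians ran from 5.20 to 5.31. The mean level per array of 12 stromal genes, among them the collagens COL1A1 and COL3A1 and vimentin, lay between 10.96 and 12.36. No array of another tissue was there to compare, so this does not test the sarcoma label. Control transcripts of bacterial origin with a poly-A tail, which are spiked into RNA, split the tumours into 9 with a high control level (6.23 to 8.04) and 12 with a low one (3.195 to 4.36). Both arrays of a tumour always fell in the same group. No label names a batch, so the groups are called high and low spike-in tumours here. RNA integrity was followed by the difference between 3′ and 5′ probe sets for actin and GAPDH, which rises as RNA degrades. It changed by 0.13 ± 0.44 (SD, n = 21) and rose in 8 of 9 high and 5 of 12 low spike-in tumours. In whole tumour pieces, fewer cells of a type and less RNA per cell cannot be told apart.

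**Figure D1:**
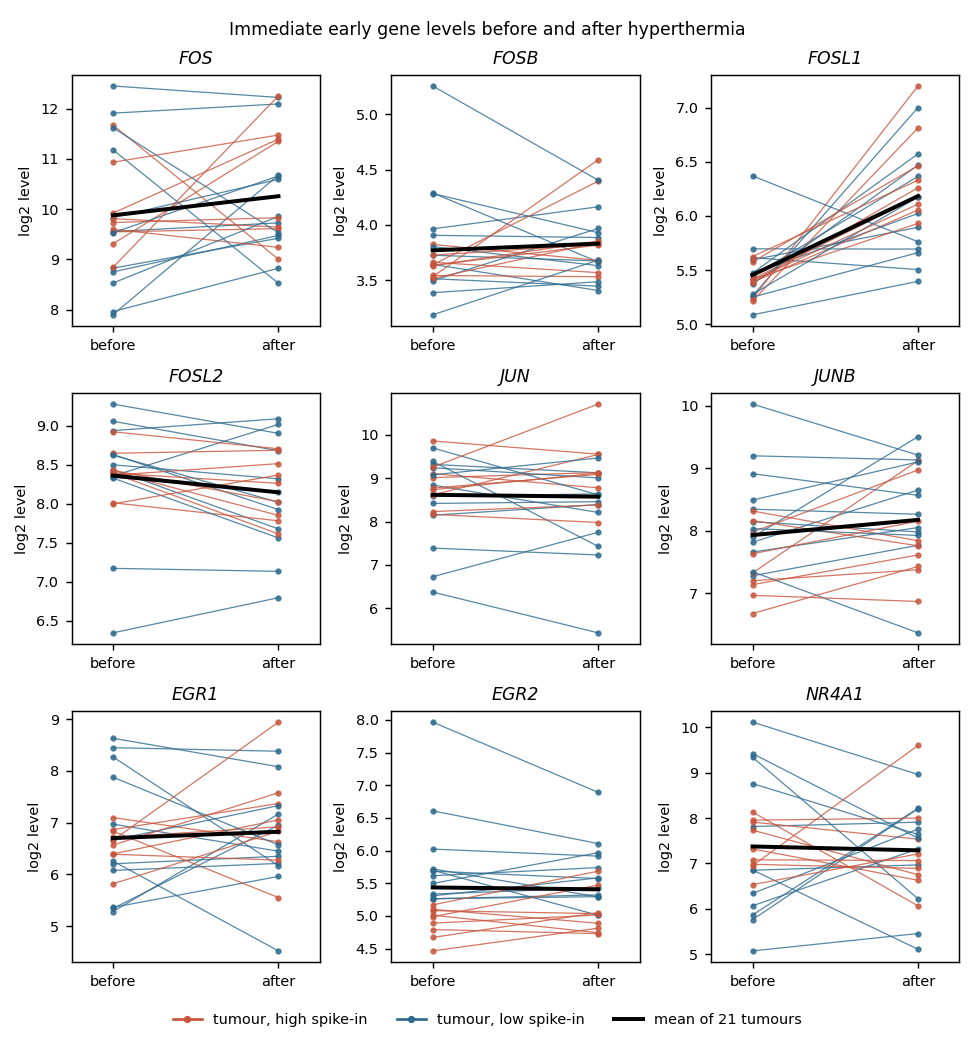
Log2 level (vertical axes, a separate scale for each gene) of the 9 measured genes before and after hyperthermia. Each thin line joins the 2 samples of a tumour, coloured by spike-in group, and the thick black line joins the means of the 21 tumours. FOSL1 lines rise in 18 tumours, while lines of FOS, EGR1 and NR4A1 cross in both directions.

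FOSL1 (gene ID 483724), the gene for the AP-1 subunit FRA-1, had a lowest, median and highest level of 5.09, 5.41 and 6.37 before treatment. After treatment these were 5.40, 6.17 and 7.20. The highest level before treatment came from tumour 15, and the next was 5.70. Thus 20 of the 21 samples after treatment lay above the median of those before, and 6 lay above even the level of tumour 15. The spread also differed, with an SD of 0.26 before and 0.47 after treatment, a difference that was not tested. FOSL1 had only 1 probe set, so no second one could be compared. Its median before treatment was near the median of all probe sets, 5.28.

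The change of FOSL1 had a 95% interval from 0.48 to 0.98 and a limma adjusted p of 0.00139. It was at least 2-fold up in 5 tumours and at least 2-fold down in 0. The largest rise was 1.96 in tumour 12, from 5.24 to 7.20, and the 3 tumours without a rise included tumour 15, where the level fell by 0.61. In the ranking of mean changes, FOSL1 lay at the 99.6th percentile of all named genes. By signed change FOSL1 was the highest of the 9 genes in 7 tumours, in 4 of which another gene fell by more than FOSL1 rose.

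Both spike-in groups showed the rise of FOSL1, but only the high one passed the threshold by itself. In the 9 high spike-in tumours all 9 were higher, by 0.96 on average with a limma adjusted p of 0.00517, where 3.01% of probe sets were called, and 1.19% as higher. In the 12 low spike-in tumours 9 were higher, by 0.55 with a limma adjusted p of 0.228, and there limma called 0 probe sets of 42924 although 4989 had an unadjusted p under 0.05. The difference between the groups was 0.41 with an adjusted p of 0.748 in the limma interaction test, which called 0.00233% of probe sets. Leaving out any 1 tumour kept the change of FOSL1 between 0.67 and 0.79, and the adjusted p of limma stayed at or below 0.00322.

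FOS (gene ID 490792) encodes the founding member of the family. Its lowest, median and highest levels were 7.90, 9.60 and 12.5 before treatment and 8.52, 9.83 and 12.3 after it. The 2 sets of samples overlapped over nearly their whole range. The mean change was 0.38 ± 0.30 (SE, n = 21), with a 95% interval from -0.25 to 1.01 and a limma adjusted p of 0.558, and 15 tumours were higher. A second probe set for FOS gave 0.31 and followed the first with r = 0.98 over the 21 tumours.

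Single tumours moved far more than the mean of FOS. The level went from 8.84 to 12.3 in tumour 19, a 10.7-fold rise, and from 7.90 to 10.7 in tumour 7. It went from 11.7 to 9.001 in tumour 11, from 11.2 to 8.52 in tumour 13 and from 11.6 to 9.53 in tumour 17. In all, FOS was at least 2-fold up in 6 tumours and at least 2-fold down in 3. The SD of its change, 1.54, was larger than that of 99.9% of named genes.

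FOSB (gene ID 484445), which encodes a close relative of FOS, ran from 3.19 through a median of 3.64 to 5.26 before treatment and from 3.41 through 3.82 to 4.59 after it. Its mean over all arrays, 3.801, was below the median of all probe sets, 5.28, and it was the 1 gene of the 9 that a filter at that median left out, so 8 of 9 passed. FOSB was higher in 10 tumours, with a change of 0.06 ± 0.09 (SE, n = 21) and a limma adjusted p of 0.784. The change was 0.27 in high and -0.09 in low spike-in tumours, with an adjusted p of 0.689 for the difference in limma.

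FOSL2 (gene ID 608412), the gene for FRA-2, ran from 6.34 through a median of 8.41 to 9.28 before treatment and from 6.79 through 8.15 to 9.09 after it. It was lower in 15 of 21 tumours, the opposite balance to FOSL1, but the change of -0.22 ± 0.09 (SE, n = 21) did not pass the threshold, with a limma adjusted p of 0.149. A second probe set gave -0.26, also lower in 15 tumours, with a limma adjusted p of 0.110. Without tumour 6, the tumour with the largest rise of FOSL2 (0.66), the change was -0.26 and passed with an adjusted p of 0.0478 in limma. Other settings gave a smaller change. It was -0.15 (limma adjusted p 0.523) without the 5 tumours whose 3′ to 5′ difference shifted by over 0.5. With that difference as a covariate it was -0.19 (limma adjusted p 0.262), and with array weights -0.17 (limma adjusted p 0.235).

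JUN (gene ID 609429), which encodes the main partner of FOS, ran from 6.38 through a median of 8.77 to 9.86 before treatment and from 5.43 through 8.64 to 10.7 after it. It was higher in 11 tumours and lower in 10, with a change of -0.04 ± 0.15 (SE, n = 21) and a limma adjusted p of 0.923. The range was wide, from -1.96 in tumour 16 to 1.46 in tumour 19. The mean was 0.28 in high and -0.29 in low spike-in tumours, a difference of 0.57 with a limma adjusted p of 0.712.

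JUNB (gene ID 484927), which encodes a JUN family protein that can hold JUN in check, ran from 6.67 through a median of 7.90 to 10.03 before treatment and from 6.36 through 8.05 to 9.51 after it. The change was 0.24 ± 0.14 (SE, n = 21) with a limma adjusted p of 0.381, higher in 11 tumours. It was at least 2-fold up in 2 tumours and at least 2-fold down in 0, and ran from -0.98 in tumour 17 to 1.80 in tumour 10.

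EGR1 (gene ID 481528), the zinc finger factor that serum and injury switch on together with FOS, ran from 5.28 through a median of 6.66 to 8.63 before treatment and from 4.52 through 6.83 to 8.94 after it. The change was 0.12 ± 0.23 (SE, n = 21) with a limma adjusted p of 0.842, higher in 12 tumours. It was at least 2-fold up in 5 tumours and at least 2-fold down in 4, between -2.10 in tumour 13 and 2.28 in tumour 19. A second probe set for EGR1 gave 0.10 and correlated with the first at r = 0.87.

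EGR2 (gene ID 479219), known for its part in myelinating Schwann cells and in lymphocytes, ran from 4.46 through a median of 5.26 to 7.97 before treatment and from 4.73 through 5.32 to 6.89 after it. Tumour 17 held the highest value in both. The change was -0.03 ± 0.08 (SE, n = 21) with a limma adjusted p of 0.907, higher in 11 tumours. For EGR2 the r between the levels of the first and second samples was 0.86, given as a description over the 21 tumours. It was 0.78 for FOSL2, 0.73 for JUN, 0.61 for JUNB, 0.38 for FOSB and 0.30 for EGR1. For FOS it was 0.22, for NR4A1 0.17 and for FOSL1 -0.30. Before treatment EGR2 was at most 5.17 in high and at least 5.26 in low spike-in tumours. How far this offset and tumour 17 make up the r of EGR2 was not tested.

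NR4A1 (gene ID 403897), the nuclear receptor also called NUR77, ran from 5.08 through a median of 7.08 to 10.1 before treatment and from 5.11 through 7.32 to 9.60 after it. The change was -0.09 ± 0.30 (SE, n = 21) with a limma adjusted p of 0.925, higher in 10 tumours. It was at least 2-fold up in 5 tumours and at least 2-fold down in 6. The fall in tumour 13 was from 9.34 to 6.22, and the rise in tumour 19 was from 6.95 to 9.60. A second probe set gave -0.08, with r = 0.92 to the first. The probe sets for FOSB, JUN, EGR1 and NR4A1 that end in _s_at can bind transcripts of related genes.

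**Figure D2:**
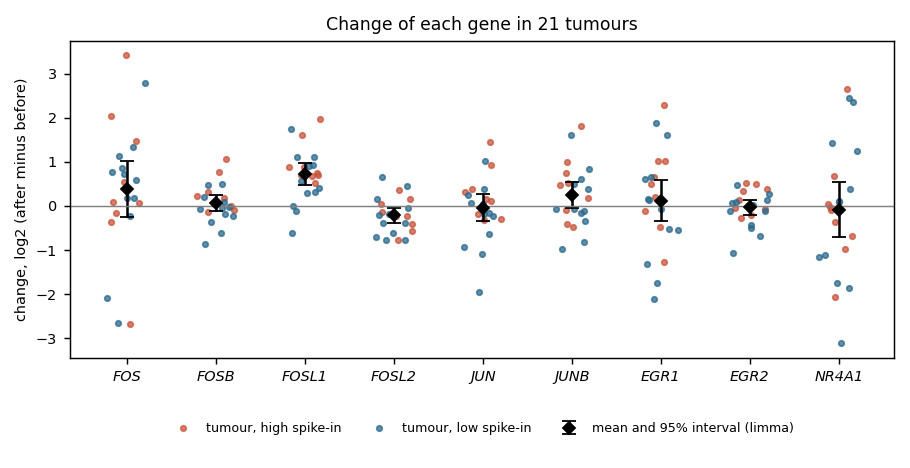
Change in log2 level (vertical axis, after minus before) of each of the 9 genes, with 1 point per tumour coloured by spike-in group and the mean with its 95% limma interval as a black diamond and bar. The interval of FOSL1 runs from 0.48 to 0.98, while FOS and NR4A1 spread over more than 5 log2 units around means of 0.38 and -0.09.

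Within a tumour the 9 genes often moved in the same direction. In tumour 19 all 9 were higher in the second sample, and in tumours 7, 10 and 12 it was 8 of 9. In tumours 8, 11, 13 and 15 only 1 of 9 was higher. That gene was FOSL1 in tumours 8, 11 and 13, where it changed by 0.67, 0.52 and 0.90, and FOS in tumour 15, where it changed by 0.18. FOS was lower in 6 tumours, and FOSL1 was higher in 5 of these, including all 3 in which FOS was at least 2-fold down. Of all 21 tumours, 18 had a higher FOSL1, a similar share.

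**Figure D3:**
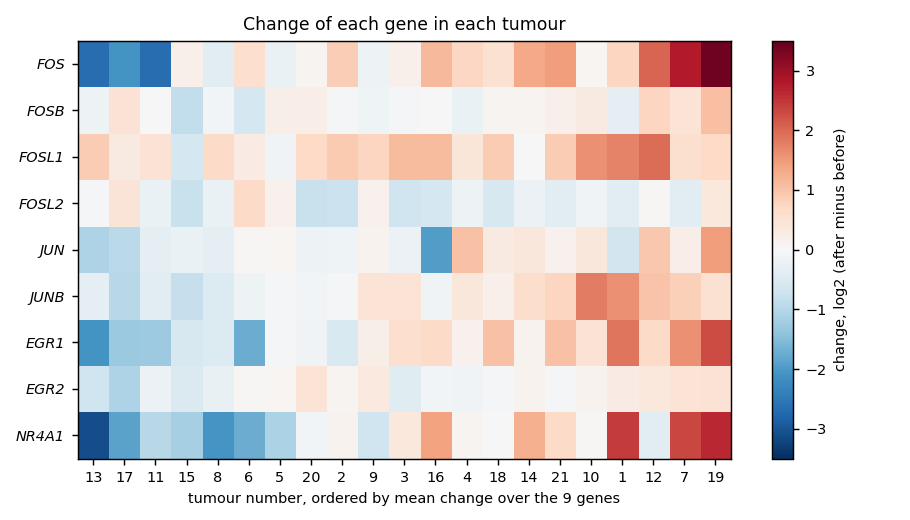
Change in log2 level (colour scale, after minus before, red for higher and blue for lower) of the 9 genes (rows) in the 21 tumours (columns), ordered by the mean change over the 9 genes. FOS, EGR1 and NR4A1 run from blue at the left end (tumours 13, 17 and 11) to red at the right end (tumours 7 and 19), while FOSL1 is red in 18 columns.

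The changes were then compared gene by gene over the 21 tumours, in 36 pairs, with Pearson's r, Spearman's rho and two-sided permutation tests adjusted over the 36. A positive r was found in 29 pairs, and 13 pairs passed the threshold, all of them positive, of which 12 also passed by rho. An r of at least 0.5 was reached by 36.1% of the member pairs, beside 4.43% of all pairs among the 9178 named genes with a mean above the median level. Without FOSB, which lies below that median level, it was 13 of 28 pairs, or 46.4%. The 4.43% was not matched for how widely genes vary. The SD of the change of the 9 genes ran from the 80.4th percentile of named genes (EGR2) to the 99.9th (NR4A1). The genes of a pair are read from the same arrays, so their changes share normalisation and the RNA quality of each sample. FOSB and FOSL2 were in none of the 13 pairs.

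EGR1 and NR4A1 were the closest pair, with r = 0.89 and rho = 0.82, both with an adjusted permutation p of 0.00036, which for r is the smallest the permutations can give, and they moved in the same direction in 17 of 21 tumours. Without tumours 13 and 19, the farthest from the median of EGR1, r was 0.82, and it was 0.86 in high and 0.94 in low spike-in tumours. The next pair, FOS with EGR1, had r = 0.78 and rho = 0.68, with adjusted permutation p-values of 0.00072 and 0.00636. These became 0.69 without tumours 11 and 13, and 0.93 and 0.72 within the high and low spike-in groups, all given as r. FOS and NR4A1 had r = 0.77 and rho = 0.78, with adjusted permutation p-values of 0.00072 and 0.00036, with r = 0.75 without tumours 11 and 13, and 0.75 and 0.83 in high and low spike-in tumours.

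JUNB was correlated with EGR1, with r = 0.70 and rho = 0.77 and adjusted permutation p-values of 0.00281 and 0.00072, with r = 0.72 without tumours 1 and 10, and 0.50 and 0.79 in high and low spike-in tumours. EGR2 was correlated with FOS, with r = 0.70 and rho = 0.57 and adjusted permutation p-values of 0.00281 and 0.0301, with r = 0.69 without tumours 11 and 13, and 0.60 and 0.85 in high and low spike-in tumours. All of FOS, EGR1 and NR4A1 were at least 2-fold up in 2 tumours and at least 2-fold down in 2 others. JUN passed by r with FOS (r = 0.54, rho = 0.55, adjusted permutation p-values 0.0348 and 0.0315), with r = 0.49 without tumours 11 and 13 and 0.86 and 0.39 in high and low spike-in tumours.

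FOSL1 showed no relation to FOS that passed the threshold. The r between the 2 was 0.18 and rho 0.19, with adjusted permutation p-values of 0.517 and 0.484, and r stayed at 0.22 without tumours 11 and 13. The r of FOSL1 with JUN was -0.0049, with an adjusted permutation p of 0.983. Its 1 passing partner was JUNB, with r = 0.65 and an adjusted permutation p of 0.0075, while rho was 0.50 with an adjusted permutation p of 0.0546. That relation had r = 0.57 without tumours 12 and 15, and 0.77 in high and 0.56 in low spike-in tumours. No test was made of whether the r of FOSL1 with FOS differs from that of EGR1 with FOS.

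**Figure D4:**
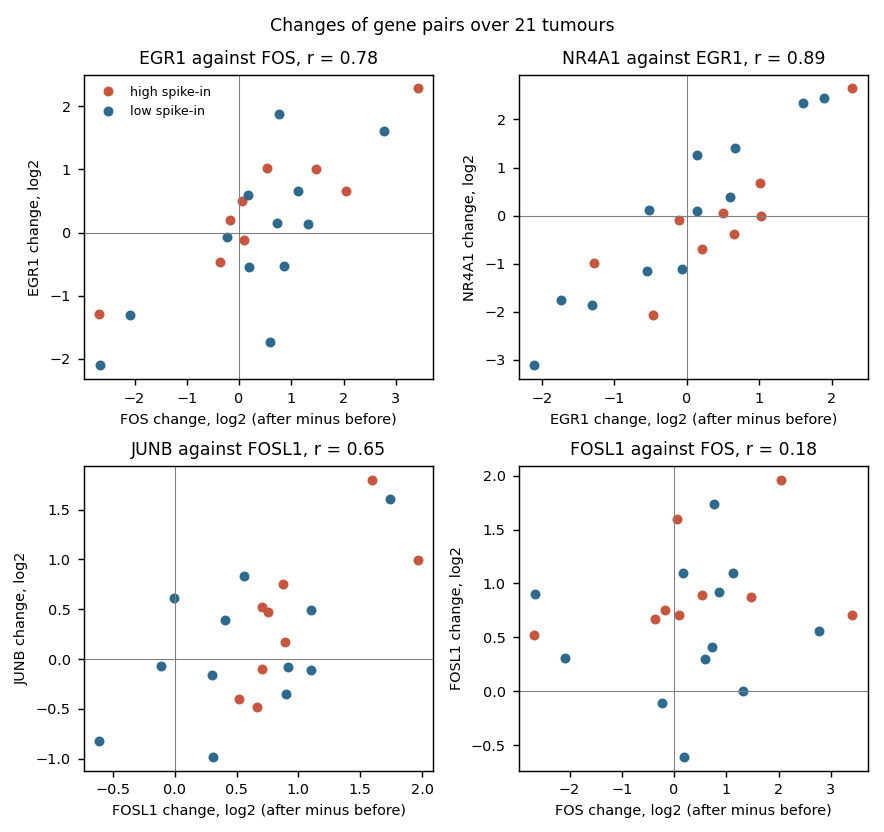
Change in log2 level (after minus before) of 1 gene against another, with 1 point per tumour coloured by spike-in group and Pearson's r in each title. EGR1 with FOS (r = 0.78) and NR4A1 with EGR1 (r = 0.89) run from lower left to upper right, JUNB with FOSL1 has r = 0.65, and FOSL1 with FOS (r = 0.18) shows positive FOSL1 changes on both sides of the FOS axis.

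Change in the 3′ to 5′ contrast was set against the change of each gene, 9 relations in all. The r ran from -0.23 for FOSL2 to 0.38 for EGR2, and 0 of 9 passed, with a smallest adjusted permutation p of 0.590 for r and 0.400 for rho. For FOSL1 r was 0.16. In low and high spike-in tumours r was 0.52 and -0.31 for FOS, and 0.47 and 0.16 for NR4A1. Before treatment, level and contrast had r from -0.70 for FOSL2 to 0.50 for FOS, which was not tested. It was 0.48 for EGR1, 0.44 for NR4A1 and -0.09 for FOSL1. Tumour 13, with the largest falls of EGR1 and NR4A1, had the highest contrast before treatment, 1.69, and its contrast changed by -1.03. The call of FOSL1 was also kept with this contrast as a covariate and without the 5 tumours in which it shifted by over 0.5.

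The genes whose change was most like that of 3 members were listed over the same 21 tumours among the 9178 genes, as a description. For FOSL1 they were SOD2 (r = 0.85), which encodes the mitochondrial superoxide dismutase, PHLDA1 (0.83), ELOA (0.82), TRNAU1AP (0.80) and EDEM1 (0.79), which encodes a protein of endoplasmic reticulum quality control. For FOS they were DUSP1 (0.90), a phosphatase of MAP kinases, EGR1 (0.78), NR4A1 (0.77), the matricellular gene CCN1 (0.76) and ERRFI1 (0.71), an inhibitor of the EGF receptor. For EGR1 they were NR4A1 (0.89), CCN1 (0.86), PPP1R15A (0.80), FOS (0.78) and IER2 (0.78). With this cut at 5 of 9178 genes, no gene appeared in both the FOSL1 list and the other 2. Below the cut, r with FOSL1 was 0.59 for PPP1R15A, 0.57 for ERRFI1, 0.41 for CCN1 and 0.33 for DUSP1. The r of SOD2 with FOS was 0.27.

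Some of these neighbours also changed on average. SOD2 rose by 0.87 ± 0.24 (SE, n = 21) with a limma adjusted p of 0.0298, higher in 17 tumours, and its call was lost when any 1 of 7 tumours (1, 2, 3, 10, 12, 16 or 21) was left out, with an adjusted p of at most 0.0573. EDEM1 rose by 1.16 ± 0.28 with a limma adjusted p of 0.0143, higher in 16 tumours, and ELOA by 0.40 ± 0.10 with a limma adjusted p of 0.0167, higher in 17. PHLDA1 (0.23, adjusted p 0.449 in limma) and TRNAU1AP (0.06, adjusted p 0.594) did not pass. Among the neighbours of FOS and EGR1, DUSP1 had a change of 0.27 ± 0.16 (SE, n = 21) with a limma adjusted p of 0.391, although it was higher in 17 tumours as well. CCN1 had 0.28 ± 0.18 with a limma adjusted p of 0.413, higher in 12, and IER2 had 0.28 ± 0.13 with a limma adjusted p of 0.212, higher in 13. PPP1R15A, which encodes the GADD34 subunit of a phosphatase, rose by 0.89 ± 0.21 with a limma adjusted p of 0.0125, higher in 18 tumours.

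Of the AP-1 partners, bZIP genes whose proteins can pair with FOS or JUN proteins, 8 of 12 listed were measured and 1 rose. Beside the counts of this list and those that follow, 4.02% of all named genes were called higher and 3.13% lower. No list was tested as a set. ATF3, a stress-induced factor, ran from 3.93 through a median of 4.48 to 6.90 before treatment and from 4.46 through 5.44 to 7.87 after it. It rose by 0.88 ± 0.22 (SE, n = 21) with a limma adjusted p of 0.0179, higher in 16 tumours. Its mean level was 4.72 before and 5.60 after treatment, beside a median of 5.28 for all probe sets. The median change of the list was 0.01, beside 0.01 for all named genes. ATF2 (-0.30, adjusted p 0.0612 in limma) and BATF3 (-0.08, adjusted p 0.725) did not pass.

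Of the other immediate early genes 25 of 30 were measured, 2 rose and none was called lower. The median change was 0.20 beside 0.01 for all named genes, and 20 of the 25 had a change above 0. GADD45B, a stress adaptor of the p38 and JNK kinases, rose by 0.83 ± 0.20 (SE, n = 21) with a limma adjusted p of 0.0135, higher in 16 tumours. SGK1, a kinase induced by serum and glucocorticoids, rose by 0.83 ± 0.24 with a limma adjusted p of 0.0359, higher in 14 tumours, and this call was lost when any 1 of 9 tumours (1, 2, 3, 7, 10, 12, 16, 18 or 21) was left out. NFIL3 (0.61, adjusted p 0.0915 in limma) and ZFP36, the mRNA decay factor tristetraprolin (0.50, adjusted p 0.118), did not pass.

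MAPK feedback and repressor genes, many of which are induced by the pathway and turn it down, gave 0 calls among 15 measured of 18, with a median change of 0.08. The largest changes were 0.65 ± 0.22 (SE, n = 21) for ERRFI1, with a limma adjusted p of 0.0806, and 0.39 for the ERK phosphatase DUSP5, with a limma adjusted p of 0.182. Of the kinases and nuclear factors upstream of the immediate early genes 22 of 25 were measured, with a median change of 0.03, and 1 rose. This was MAPKAPK2, a kinase activated by p38, at 0.34 ± 0.08 (SE, n = 21) with a limma adjusted p of 0.0164, higher in 17 tumours. The ETS factor ELK3 (0.66, adjusted p 0.0600 in limma) and the kinase RPS6KA5, also called MSK1 (-0.39, adjusted p 0.0663), did not pass.

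Among genes described as AP-1 targets 17 of 20 were measured, 3 rose and none was called lower, with a median change of 0.09. Of all named genes 4.02% were called higher and 3.13% lower. MMP1, the interstitial collagenase, ran from 4.09 through a median of 6.82 to 11.9 before treatment and from 4.13 through 9.55 to 13.1 after it. It rose by 2.48 ± 0.57 (SE, n = 21), or 5.59-fold, with a limma adjusted p of 0.0117, and was higher in 19 tumours. Single tumours ranged widely, from a fall of MMP1 by 6.84 to a rise by 6.61, with an SD of 2.90. HMGA1, a chromatin architecture protein, rose by 1.04 ± 0.25 with a limma adjusted p of 0.0135, higher in 17 tumours.

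CD44, the hyaluronan receptor, rose by 0.62 ± 0.18 (SE, n = 21) with a limma adjusted p of 0.0460, higher in 17 tumours, and lost its call without any 1 of 15 tumours, with an adjusted p of at most 0.0872. The stromelysin MMP3 (1.31, adjusted p 0.0748 in limma) and IL6 (0.77, adjusted p 0.274) did not pass. Without the 5 tumours with a shift of over 0.5 in the 3′ to 5′ contrast, 686 probe sets were called in place of 2558, and FOSL1 kept its call. There ATF3, MMP1 and HMGA1 changed by 1.02, 2.28 and 0.94 with limma adjusted p-values of 0.0568, 0.0891 and 0.122. MAPKAPK2, SGK1 and CD44 changed by 0.29, 0.78 and 0.45 with limma adjusted p-values of 0.153, 0.108 and 0.325. In the 9 high spike-in tumours alone GADD45B, SGK1, HMGA1 and CD44 changed by 0.97, 0.96, 1.07 and 0.48, and their limma adjusted p-values of 0.114, 0.0933, 0.0525 and 0.0894 missed the threshold. Over all the alternative settings the call was lost in 22 of 35 for CD44, 16 of 35 for SGK1 and 4 of 34 for ATF3, including the Wilcoxon signed-rank test for ATF3. The glucocorticoid and clock genes, which follow the hour and handling of a sample, gave 0 calls among 4 measured of 6. Beside 7.15% of named genes called, 4 genes are too few for this to tell anything on timing. PER1 was at -0.28 (unadjusted p 0.0208 and adjusted p 0.157 in limma), higher in 7 tumours, with all 6 of its probe sets lower. TSC22D3 was at -0.20 (adjusted p 0.495 in limma).

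**Figure D5:**
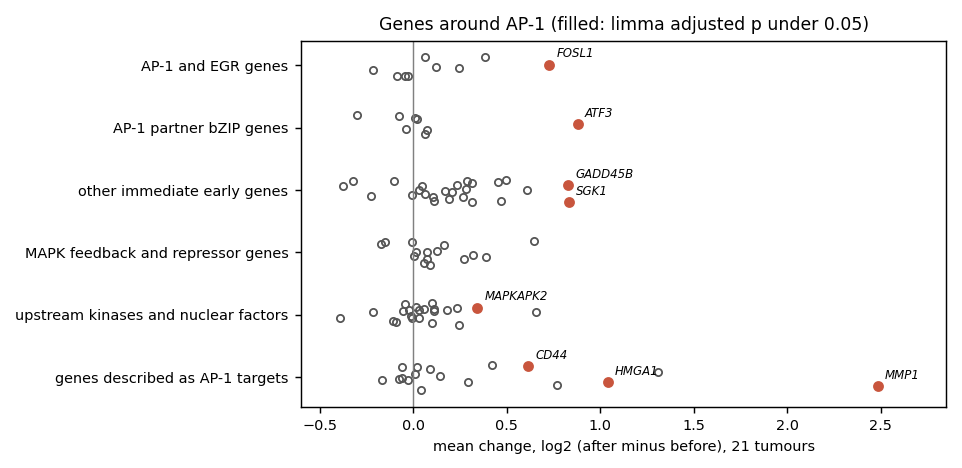
Mean change in log2 level over 21 tumours (horizontal axis, after minus before) of each measured gene in the AP-1 and EGR set and in 5 related lists (rows, with points spread vertically for legibility), filled and named where the limma adjusted p was under 0.05. FOSL1, ATF3, GADD45B, SGK1, MAPKAPK2, CD44, HMGA1 and MMP1 are filled, and all lie to the right of 0.

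Markers of other cells changed in the same samples, and their part in the values above was not tested. The counts of each marker list stand beside 4.02% of all named genes called higher and 3.13% called lower. Of 5 neutrophil markers measured of 10, 3 were higher (S100A9 by 1.08, TREM1 by 0.61 and LCN2 by 0.82) and S100A8 (0.67) and CSF3R (0.09) did not pass, while the mean level of the list ran from 4.76 to 9.50 before and from 4.69 to 8.83 after treatment. Of 12 leukocyte and macrophage markers 3 were higher (MARCO by 1.86, MSR1 by 0.52 and ITGAM by 0.35) and CSF1R was lower (-0.49), with list means from 6.35 to 8.82 before and from 6.75 to 8.66 after. CD163 (0.54) and C1QB (-0.53) did not pass. Of 11 T and B cell markers measured of 12, 5 were lower (GZMA -0.61, CD3D -0.57, LCK -0.44, CD3G -0.42 and CD3E -0.23) and none was called higher, with list means from 4.58 to 6.16 before and from 4.22 to 5.35 after. CD2 (-0.17) and CD4 (0.14) did not pass.

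Of 12 stromal markers SPARC was lower (-0.28), and FAP (-0.33) and LUM (0.39) did not pass. Endothelial and pericyte markers (10 measured), keratinocyte markers (7 of 10), skeletal muscle markers (9 of 10) and adipocyte markers (6) gave 0 calls by limma. The largest changes there were CLDN5 -0.34 and TEK -0.30, SFN 0.19 and DSG3 -0.12, MYH2 0.23 and ACTA1 0.15, and FABP4 0.47 and LPL -0.41. Beside these, 2 genes of the wider change in the series were CDKN1A, the cell cycle inhibitor p21, up by 1.85 ± 0.18 (SE, n = 21) and higher in all 21 tumours (limma adjusted p 1.06e-05), and TOP2A, a marker of dividing cells, down in 19 tumours with a change of -1.67 ± 0.24 (limma adjusted p 0.000323).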

How the data were processed

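Per the labels' protocols, tumour pieces went into RNAlater, a Qiagen mini column kit gave the RNA, and the label was biotin. The deposited values are log2 levels, which the authors made with RMA in Affymetrix Expression Console, per the submitters' processing notes, with versions not given in the sources used here. RMA makes the arrays alike in distribution, so a shift shared by most genes would not be seen. Of 43035 rows, 111 controls were left out. Of the 42924 probe sets tested, 29254 carry 1 gene symbol, 439 several and 13231 none. Symbols come from the platform annotation, which can be old.

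The treatment label gave the groups. Each title starts with a tumour code, and arrays with the same code were paired, since the series text describes 1 set of tumours sampled at both times. After removal of group means, all 21 pairs matched each other best, with correlations from 0.438 to 0.90. Whether every tumour is from its own dog is not given by the labels, and the p-values therefore describe only how these tumours vary. The genes and lists were chosen with earlier results of these data known.

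All probe sets were fitted with limma 3.58.1 in R 4.3.3, with tumour as a block, eBayes and Benjamini-Hochberg adjustment over all of them, two-sided, at 0.05. Relations over tumours used 100000 permutations, and mclust 6.1.1 checked each change for separate clusters. The fit was tested on simulated data. Python 3.11.15, SciPy 1.17.1 and Matplotlib 3.10.9 were used. All listed members are named. Of each other list every called gene is named where there are 6 or fewer, otherwise the 6 with the smallest p, and the 2 uncalled genes with the largest change. CDKN1A, TOP2A and the 5 genes most like FOSL1, FOS and EGR1 are named too. The closing section covers the alternative fits.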

Additional observations from a re-analysis of the deposited data

How the results depend on the processing

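FOSL1 was called higher in 35 of 36 settings and lost its call in the low spike-in tumours alone, where 0 of the 9 genes were called. Among the 36, the sign-flip test was read at an unadjusted p. The average over probe sets could not differ for FOSL1, which has 1 probe set. With 1 tumour left out at a time, 0 to 1 of the 9 genes were called lower, the 1 being FOSL2 without tumour 6. Of 42924 probe sets, 2558 (5.96%) were called, and leaving out 1 tumour gave 1816 to 3171. With no replicate block, that is without the pairing by tumour, 30 probe sets were called, and FOSL1 was still among them. High spike-in tumours alone gave 1293, low spike-in tumours 0 (4989 at an unadjusted p under 0.05), the tumours with a contrast shift of at most 0.5 gave 686, and all but tumours 13 and 15, which had the lowest array weights, gave 3861. The relations that passed, 13 of 36, became 6 in high and 8 in low spike-in tumours, where fewer tumours entered. The r values differed too. Their median was 0.51 in high spike-in tumours, with 36 of 36 pairs above 0, and 0.20 in low ones, with 28 of 36. Over all tumours it was 0.38. The difference between the groups was not tested. For genes near 0 the sign of the change turned. JUN was at 0.0945 with array weights, 0.28 in high spike-in tumours, 0.16 without the tumours of shifted contrast and 0.0214 without tumours 13 and 15, and it ran from -0.12 to 0.0527 with 1 tumour left out. EGR2 was at 0.0395 with array weights, 0.14 in high spike-in tumours and 0.0312 without tumours 13 and 15, and ran from -0.0558 to 0.0238 with 1 tumour left out. NR4A1 was at 0.0187 without the tumours of shifted contrast and 0.13 without tumours 13 and 15, and ran from -0.22 to 0.066 with 1 tumour left out. FOSB (-0.0928) and EGR1 (-0.10) turned in low spike-in tumours alone. BATF3 was at 0.000675 with array weights, 0.0788 in high spike-in tumours and 0.0092 without tumours 13 and 15. The cause of these turns was not tested. Other scalings, a random block, the level filter, other shrinkage, the contrast as a covariate, all probe sets of a gene averaged and the Wilcoxon signed-rank test kept 1 of the 9 genes called higher and 0 lower. Sign-flip p-values over tumours were computed without adjustment, and promoter and protein sequences were not used here. Low levels limit what a small change can show, as for FOSB and MMP3, with means over all arrays of 3.80 and 4.44. The mean of ATF3, 5.16, was just below the median of all probe sets, 5.28.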

Other observations

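The change of FOSL1 was set against genes described as AP-1 targets and against CDKN1A and TOP2A after the values above had been seen, so these relations are descriptions of this set of tumours. Of the 17 targets measured, 11 had a change that formed 1 cluster over the tumours, and 2 of these 11 passed by Pearson's r with a permutation test adjusted over the 11. MMP1, MMP13, CCND1, AREG, EREG and AXL formed 2 clusters and were not tested. For MMP1 the r with FOSL1 was 0.57, given as a description. HMGA1 had r = 0.60 and rho = 0.73 with adjusted permutation p-values of 0.0335 and 0.00418, with r = 0.59 without tumours 12 and 15, and 0.44 in high and 0.70 in low spike-in tumours. MMP3 had r = 0.60 and rho = 0.44 with adjusted permutation p-values of 0.0335 and 0.125, with r = 0.47 without tumours 12 and 15, and 0.56 in high and 0.76 in low spike-in tumours. CD44 had r = 0.49 and rho = 0.59 with adjusted permutation p-values of 0.0903 and 0.0339, and r was 0.02 in high and 0.73 in low spike-in tumours.

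The r of FOSL1 with VEGFA, the main growth factor of blood vessels, and with IL6 depended on which tumours were taken. For VEGFA over all 21 tumours r was 0.36 and rho 0.55, with adjusted permutation p-values of 0.239 and 0.0411. Without tumours 12 and 15 r was 0.77, and it was -0.25 in the 9 high and 0.92 in the 12 low spike-in tumours. For IL6 r was 0.46 and rho 0.37, with adjusted permutation p-values of 0.103 and 0.230, r was 0.28 without tumours 12 and 15, and the order of the groups was the other way, with 0.95 in high and 0.27 in low spike-in tumours. These differences between the groups were not tested.

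CDKN1A and TOP2A were compared with each of the 9 genes, 18 relations in all, and 0 passed. The closest were CDKN1A with FOSL1 (r = 0.60, rho = 0.61, adjusted permutation p 0.0751 for both, r = 0.46 without tumours 5 and 14, 0.33 in high and 0.62 in low spike-in tumours) and TOP2A with EGR2 (r = -0.53, adjusted permutation p 0.114). CDKN1A with FOS had r = -0.0055.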
